A study of Homo sapiens with 6 samples.

Results

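The kallikrein-related peptidases examined here were KLK4, KLK5, KLK6, KLK7, KLK8, KLK10, KLK11, KLK13 and KLK14, 9 genes that lie in 1 cluster on chromosome 19. All non-control array probes of these genes were taken, which gave 15 probes out of 125601 on the array, and the 9 genes were among 43260 to which a probe could be assigned. Gene expression had been measured with 6 single-color Agilent arrays in SKOV-3, an established human ovarian cancer cell line grown in RPMI medium with fetal bovine serum. The labels also spell the line in other ways (the array titles as SKOV-1), and SKOV-3, the name in the cell line field, was used. In 3 arrays the label was 1,25(OH)2D3, the hormonally active form of vitamin D, at 100 nmol/L for 72 h, and in 3 it was vehicle, ethanol at the same concentration for 72 h. No label said whether arrays of 1 group came from separate cultures, so that p-values measure only the spread between these arrays, which may be technical.

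The kallikrein-related peptidases are secreted serine proteases. They are made as inactive precursors, are activated when a short propeptide is removed, often by another protease of the family, and are held in check by serpins and SPINK inhibitors. Some cut like trypsin and others like chymotrypsin, and their substrates include extracellular matrix, growth factor precursors, adhesion molecules and protease-activated receptors. Many respond to steroid hormones in hormone-responsive tissue, and several are known for raised levels in ovarian carcinoma.

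CYP24A1, the 24-hydroxylase that inactivates vitamin D and a classical target of the vitamin D receptor, went against the array labels. Its exon 12 probe had log2 values of 2.23, 13.84 and 3.30 in the arrays labelled 1,25(OH)2D3 replicates 1, 2 and 3, and of 14.18, 4.75 and 14.34 in the arrays labelled vehicle replicates 1, 2 and 3. CYP24A1 was therefore high in the array labelled 1,25(OH)2D3 replicate 2 and in those labelled vehicle replicates 1 and 3, and low in the other 3. All values below are given by array label, no array was moved to another group, and no direction under a label can be read as the effect of the hormone. Where CYP24A1-high and CYP24A1-low arrays are mentioned, the values are a description without a mean or a test.

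Between 49.1% and 57.5% of an array's probes carried the flag for a signal well above background that the scanner software sets, and no spot of a non-control probe was saturated. The lowest log2 value of a probe well above background lay between 3.76 and 4.54 among the arrays. The arrays labelled 1,25(OH)2D3 replicates 1 and 2 were on slide 1 and the other 4 on slide 2. The markers listed for ovarian carcinoma cells were well above background in all 6 arrays for 7 of 7 genes with a probe, with ERBB2 between 13.70 and 14.51. Of the 5 fibroblast markers, COL1A1 and COL3A1 were well above background in 6 arrays, COL1A2 in 5, LUM in 1 and DCN in 0. The 4 leukocyte markers with a probe were well above background in 6 arrays, between 5.84 and 9.31. The part of other cells in the results was not tested.

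The 9 genes are transcribed from the minus strand between positions 50906351 and 51084245 of chromosome 19 (hg38), from KLK4 at one end to KLK14 at the other. Each probe is 60 bases long and reports only the stretch it was made for, which mattered most for KLK6, KLK8 and KLK13. The sequences of 5 probes are shown 5′ to 3′ in the sense of the gene, because the values given below for these probes belong to those stretches alone. Whether the sequence of a probe played a part in any difference was not tested. Capitals mark the bases of exon 3 in the KLK8 probe and of exon 2 in the KLK13 junction probe. The other 3 lie within a single coding exon and have no capitals.
KLK6 exon 5: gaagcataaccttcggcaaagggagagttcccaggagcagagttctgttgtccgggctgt
KLK8 exon 3 and intron: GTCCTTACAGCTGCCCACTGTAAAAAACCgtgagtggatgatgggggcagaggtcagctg
KLK13 exons 2 and 3: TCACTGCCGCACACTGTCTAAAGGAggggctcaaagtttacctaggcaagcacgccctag
KLK13 exon 4: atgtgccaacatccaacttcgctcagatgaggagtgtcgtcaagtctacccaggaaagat
KLK4 exon 4: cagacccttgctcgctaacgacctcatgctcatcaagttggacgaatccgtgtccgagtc

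Most kallikrein probes were near or below background. Of the 15 probes, 3 (20.0%) were well above background in all 6 arrays, 1 each for KLK6, KLK8 and KLK10, and 8 (53.3%) were not well above background in any array. Over the whole array 45.4% of the probes were well above background in all 6 arrays and 37.4% in none, and among probes of protein-coding transcripts these shares were 67.6% and 20.7%. KLK7, KLK11 and KLK14 had no probe well above background in any array. KLK4, KLK5 and KLK13 had 1 probe each that was well above background in 1 or 2 of the 6 arrays. The flag was set for 26 of the 90 pairs of a kallikrein probe and an array. A less strict flag of the same software, a signal significantly above background, was set for 64 of the 90. The share of this flag over all probes is not given here, so that the count is a description only.

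**Figure D1:**
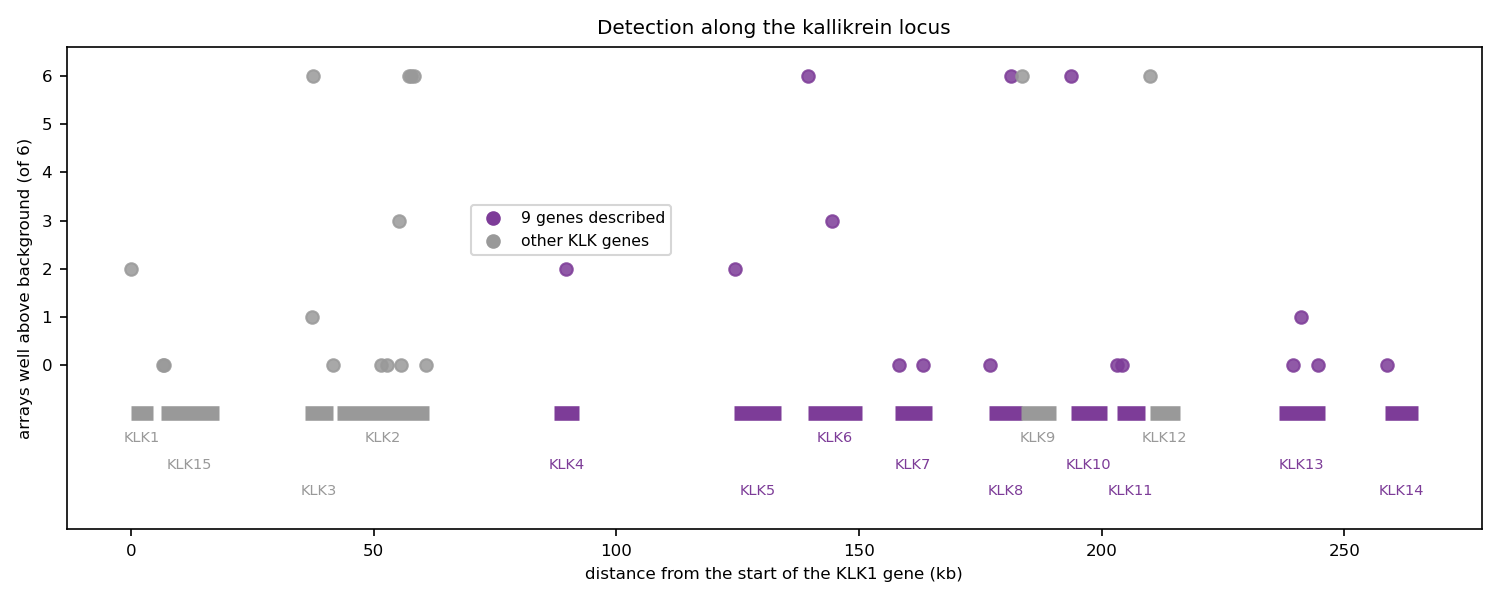
Position of the kallikrein probes along the cluster and their detection. The x axis is the distance from the start of KLK1 in kb, the y axis the number of arrays, of 6, in which a probe was well above background, with probes of the 9 genes in purple and of other KLK genes in grey. Among the purple points those at 6 belong to KLK6, KLK8 and KLK10, and 8 lie at 0.

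None of the kallikrein probes that could be tested passed a threshold between the labels. A probe was tested when it was well above background in all 3 arrays of at least 1 label, which held for 3 of the 15, and these 3 stand only for themselves and not for the family. With limma, a change of more than 2-fold at an unadjusted p below 0.05 was met by 0 of the 3 probes, against 0.745% of all 63337 tested probes (0.486% higher and 0.259% lower under the label 1,25(OH)2D3). An unadjusted p below 0.05 at any fold was met by 0 of the 3, against 6.77%. Without the array labelled vehicle replicate 3 it was met by 1 of the 3, the KLK8 probe, at a difference of 0.70 (limma, adjusted p = 0.816). A log2 change beyond 2 in size at an adjusted p below 0.05 was met by 0 of the 3 and by 0% of all tested probes. The values of the labels overlapped for all 3, whereas they did not overlap for 12.2% of all tested probes.

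KLK6 encodes a trypsin-like protease, also named neurosin, that cuts myelin and matrix proteins. Its probe in the 3′ UTR of exon 7, at chr19:50958632-50958691, read 6.28, 5.93 and 6.28 in the arrays labelled 1,25(OH)2D3 and 6.45, 5.80 and 6.28 in those labelled vehicle (log2). The values of the labels overlapped, and the lowest of the 6 was that of the array labelled vehicle replicate 2. The means were 6.16 ± 0.20 and 6.18 ± 0.34 (SD, n = 3 arrays each), a difference of -0.02 with a standard error of 0.214 (limma, adjusted p = 0.987), and its 95% confidence interval ran from -0.51 to 0.48. This probe matched 4 of the 7 annotated KLK6 transcripts.

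The other KLK6 probe, in coding exon 5 at chr19:50963469-50963528, matched all 7 transcripts and behaved differently. It read 2.44, 4.46 and 3.63 in the arrays labelled 1,25(OH)2D3 and 4.64, 2.40 and 4.88 in those labelled vehicle (log2). It was well above background in exactly 3 arrays, those labelled 1,25(OH)2D3 replicate 2 and vehicle replicates 1 and 3, which were the CYP24A1-high arrays. The lowest of these 3 values was 4.46 and the highest of the others was 3.63, so the values did not overlap, whereas by label they did. In the scanner signals, on a linear scale, the probe read 20.8, 25.5 and 27.2 in these 3 arrays, and 5.71, 14.4 and 5.99 in the arrays labelled 1,25(OH)2D3 replicates 1 and 3 and vehicle replicate 2. The 3 CYP24A1-high arrays also lay above the others when the signals were scaled to the 75th percentile of each array. They did so after normexp background correction too, but by less, with a lowest value of 6.46 against a highest of 6.33 in the others. The 3 values well above background, 4.46, 4.64 and 4.88, were dim. In each of these 3 arrays the probe lay nearer the lowest value well above background than the median of such probes. Those medians were 6.93, 7.01 and 7.02. Of all 125601 probes, 0.112% were well above background in exactly these 3 arrays and 0.0398% in exactly the other 3. All CYP24A1-high values lay above all CYP24A1-low ones for 3.42%. By label the means of the KLK6 exon 5 probe were 3.51 ± 1.02 and 3.97 ± 1.37 (SD, n = 3), and it was not tested. An lncRNA gene is annotated on the opposite strand at both KLK6 probes.

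**Figure D2:**
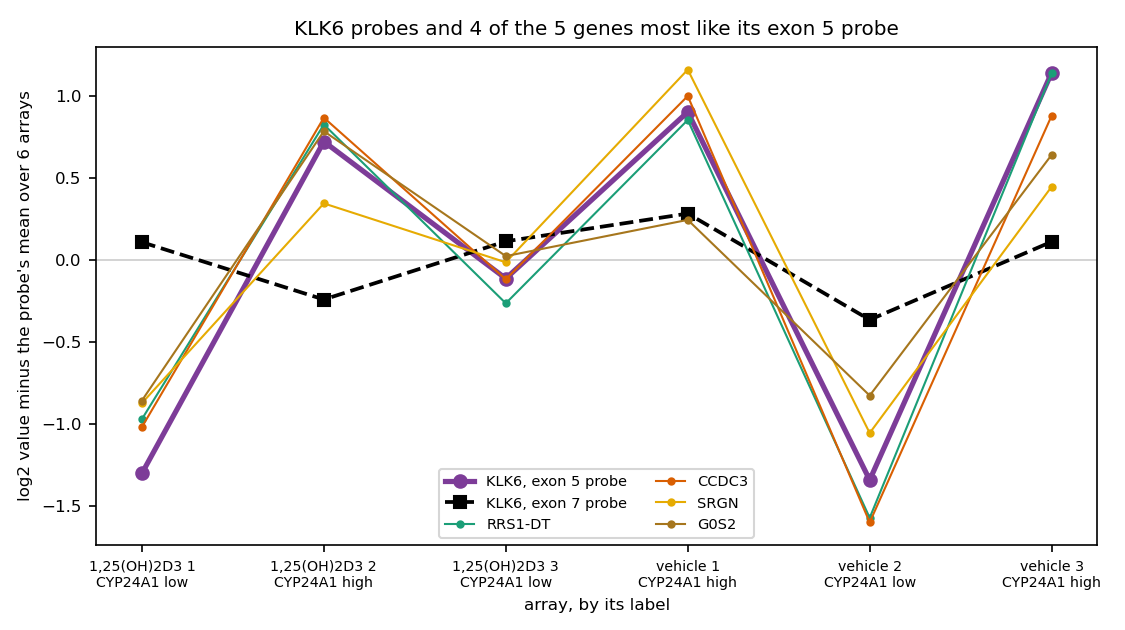
The KLK6 probes of exon 5 and exon 7 and 4 of the 5 genes most like the exon 5 probe. The y axis is the log2 value of a probe minus its mean over the 6 arrays, the x axis the array by its label, and lines only link the points of a probe. The 4 genes were chosen because they follow the exon 5 probe, which was highest in the 3 CYP24A1-high arrays, and the exon 7 probe, from 5.80 to 6.45 before centring, stayed near its mean.

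RRS1-DT, CCDC3, SRGN and G0S2 were 4 of the 5 genes whose probes were closest to KLK6 exon 5 in shape over the 6 arrays. Likeness was the root mean square difference of the log2 values after each probe was centred on its own mean, over 22450 genes, each by its brightest probe and well above background in at least 3 arrays, and it was 0.182 for RRS1-DT, 0.202 for CCDC3, 0.401 for SRGN and 0.441 for G0S2. SRGN, which encodes the proteoglycan core protein serglycin, read 3.58, 4.80 and 4.44 in the arrays labelled 1,25(OH)2D3 and 5.61, 3.40 and 4.90 in those labelled vehicle. G0S2, an inhibitor of the lipase that starts triglyceride breakdown, read 11.64, 13.28 and 12.52 in the arrays labelled 1,25(OH)2D3 and 12.74, 11.67 and 13.14 in those labelled vehicle. Since these genes were chosen for the likeness of their values to KLK6 exon 5, their order over the arrays is a description of that choice. The choice also required a probe to be well above background in at least 3 arrays. RRS1-DT, CCDC3 and SRGN, like KLK6 exon 5, met this only through the 3 CYP24A1-high arrays. That shared detection is therefore part of the same description and not separate support.

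KLK8 encodes neuropsin, a trypsin-like protease of brain and epidermis. The KLK8 probe that was well above background in all 6 arrays does not report the spliced coding message as such, because 29 of its bases lie in exon 3 and 31 in the intron that follows, at chr19:51000393-51000452, and it matched a transcript that retains this intron. It read 6.41, 6.35 and 6.02 in the arrays labelled 1,25(OH)2D3 and 5.72, 5.41 and 6.46 in those labelled vehicle (log2). The highest of the 6 values was in the array labelled vehicle replicate 3, so the labels overlapped. The means were 6.26 ± 0.21 and 5.86 ± 0.54 (SD, n = 3 each), a difference of 0.40 with a standard error of 0.28 (limma, adjusted p = 0.725, 95% confidence interval -0.26 to 1.05). With the slide as a block, which leaves only 1,25(OH)2D3 replicate 3 against the 3 vehicle arrays of slide 2, the difference was 0.15. The probe in the last exon of KLK8, with 58 coding bases, was not well above background in any array and read between 2.21 and 3.83. It also matched a second annotated gene over all 60 bases.

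KLK10 encodes NES1, a family member known as a candidate tumor suppressor in breast epithelium. Its only probe, in the 3′ UTR of exon 6 at chr19:51012775-51012834, read 5.83, 6.19 and 6.27 in the arrays labelled 1,25(OH)2D3 and 6.26, 6.44 and 6.49 in those labelled vehicle (log2). The labels overlapped by 1 array on each side, 1,25(OH)2D3 replicate 3 at 6.27 and vehicle replicate 1 at 6.26. The means were 6.10 ± 0.23 and 6.40 ± 0.12 (SD, n = 3 each), and the difference of -0.30 had a standard error of 0.174 (limma, adjusted p = 0.703, 95% confidence interval -0.71 to 0.11). Within slide 2 it was -0.13.

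The array labelled 1,25(OH)2D3 replicate 2 and the array labelled vehicle replicate 2 were the only ones whose CYP24A1 level went with the label, and without the other 4 no test is possible. In these arrays, in this order, KLK6 exon 7 read 5.93 and 5.80, KLK8 exon 3 and intron 6.35 and 5.41, and KLK10 6.19 and 6.44. KLK6 exon 5, which was not tested, read 4.46 and 2.40. The former array was on slide 1 and the latter on slide 2, so that label and slide cannot be told apart between them. With each of the 6 arrays left out in turn, the difference between the labels ran from -0.20 to 0.12 for KLK6 exon 7, from 0.17 to 0.70 for KLK8 and from -0.39 to -0.17 for KLK10.

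**Figure D3:**
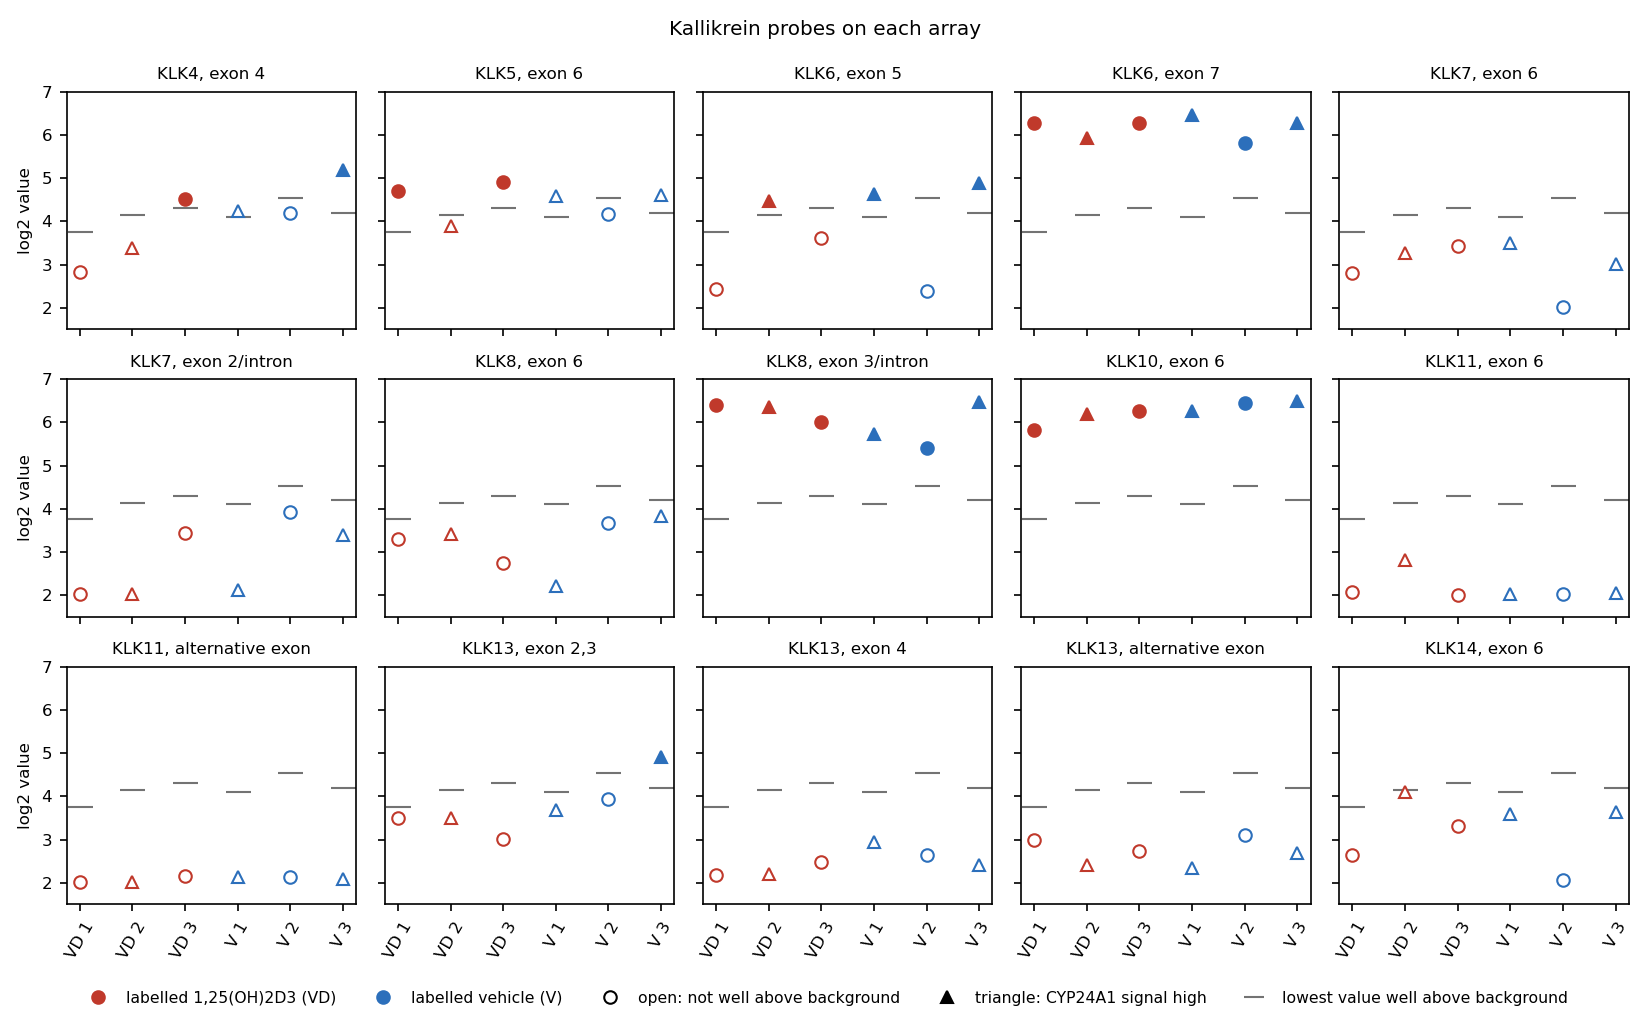
Log2 value (y axis) of each of the 15 kallikrein probes, 1 panel per probe, in the 6 arrays (x axis), red for arrays labelled 1,25(OH)2D3 (VD) and blue for vehicle (V). Filled symbols are well above background, triangles are CYP24A1-high arrays, and grey ticks give the lowest value well above background in that array. The probes of KLK6 exon 7, KLK8 exon 3 and intron, and KLK10 lay above the others, from 5.41 to 6.49, and were well above background in all 6 arrays.

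KLK4, KLK5 and KLK13 lay at the edge of detection. KLK4, a trypsin-like protease that matures enamel matrix and is made in prostate, had 1 probe in coding exon 4, at chr19:50908668-50908727. It read 2.82, 3.39 and 4.52 in the arrays labelled 1,25(OH)2D3 and 4.24, 4.18 and 5.19 in those labelled vehicle (log2), and it was well above background in 1,25(OH)2D3 replicate 3 and vehicle replicate 3 only. Its lowest values, 2.82 and 3.39, were those of the arrays on slide 1. The means differed by -0.96. The difference was -0.02 within slide 2, with 1 array labelled 1,25(OH)2D3 against 3, and -0.17 after normexp background correction, and the part of the slide in it was not tested.

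KLK5, an activator of other kallikreins in the epidermis, had 1 probe in exon 6, of which 36 bases are coding. It read 4.70, 3.89 and 4.91 in the arrays labelled 1,25(OH)2D3 and 4.58, 4.18 and 4.61 in those labelled vehicle (log2), with overlap between the labels. The flag was set for 1,25(OH)2D3 replicates 1 and 3 and for no array labelled vehicle. The measured means, 4.50 ± 0.54 and 4.46 ± 0.24 (SD, n = 3), differed by 0.05, and against the detection limit no fold change can be given.

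KLK13, a trypsin-like protease of squamous epithelium, had 3 probes. Its probe across the junction of exons 2 and 3 read 3.49, 3.50 and 3.02 in the arrays labelled 1,25(OH)2D3 and 3.69, 3.95 and 4.90 in those labelled vehicle (log2). It was the only one of the 15 probes whose labels did not overlap, which held for 10.6% of all probes. It was well above background only in vehicle replicate 3 and was therefore not tested. The measured means were 3.34 ± 0.28 and 4.18 ± 0.64 (SD, n = 3), a difference of -0.84, which was -0.18 after normexp background correction. No fold change is given, since 5 of the 6 arrays were under the detection flag. The KLK13 probe in exon 4, which matched 8 of 9 annotated transcripts as the junction probe did, was not well above background in any array and read 2.17, 2.20 and 2.49 in the arrays labelled 1,25(OH)2D3 and 2.94, 2.65 and 2.40 in those labelled vehicle, with overlap. The KLK13 probe in an alternative exon, found in transcripts annotated for nonsense-mediated decay, was not well above background in any array either and read between 2.34 and 3.11.

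KLK7, KLK11 and KLK14 stayed below the detection flag in all 6 arrays. KLK7, a chymotrypsin-like protease that cuts the desmosome proteins of the skin, read between 2.02 and 3.50 with its probe in exon 6 and between 2.03 and 3.94 with a probe that runs from exon 2 into sequence outside the exons of the main transcript. KLK11, also named hippostasin, read between 2.01 and 2.82 with its probe in exon 6 and between 2.01 and 2.15 with a probe in a transcript that retains an intron. KLK14, a trypsin-like protease that can activate other kallikreins, read 2.65, 4.10 and 3.31 in the arrays labelled 1,25(OH)2D3 and 3.58, 2.05 and 3.64 in those labelled vehicle (log2). The KLK14 values of the CYP24A1-high arrays, 3.58 to 4.10, lay above those of the CYP24A1-low arrays, of which the highest was 3.31. Together with KLK6 exon 5, which was higher, and the alternative-exon probe of KLK13, which was lower, 3 of the 15 probes (20.0%) did not overlap between CYP24A1-high and CYP24A1-low arrays, against 6.42% of all probes. The probes of KLK13 and KLK14 among these 3 were not well above background in any array, so their order rests on signals under the detection limit.

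**Figure D4:**
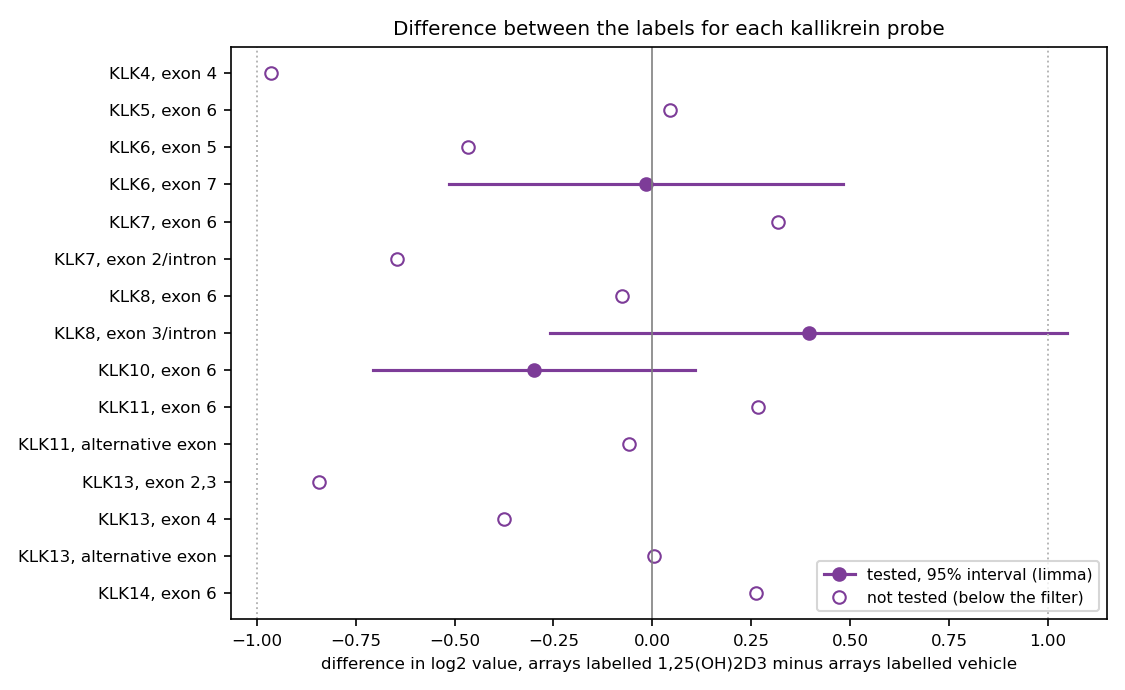
Difference of the mean log2 values, arrays labelled 1,25(OH)2D3 minus arrays labelled vehicle, for the 15 kallikrein probes on the x axis, with the 95% confidence interval from limma for the 3 tested probes. Dotted lines mark a fold change of 2, and the 3 intervals include 0.

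The genes around the 9 kallikreins in the pathway were also without a call. Of 29 related genes, all with a probe, 16 were tested and 0 changed more than 2-fold at an unadjusted p below 0.05, or met that p at any fold (limma, background 0.745% and 6.77%), with 10 higher and 6 lower under the label 1,25(OH)2D3. The median log2 difference over all tested probes was -0.0037. Among the other 6 genes of the cluster, KLK2, KLK3, KLK9 and KLK12 had a brightest probe well above background in all 6 arrays, and the largest difference was 0.24 for KLK2. The brightest KLK2 and KLK3 probes matched transcripts that retain an intron, whereas the probes in the last exon of KLK2 and of KLK3 were well above background in 0 arrays. A KLK2 probe across coding exons 3 and 4 was, however, well above background in all 6 arrays, between 8.37 and 8.89. It shares 48 bases with KLK3, and the brightest KLK2 probe shares 44. The KLK9 probe matched a second annotated gene over all 60 bases, so that the level of KLK2 and of KLK9 is uncertain.

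Among 8 inhibitors, only SERPINA3 and SERPINF2 were well above background in all 6 arrays, with a largest difference of 0.16 for SERPINA3, the serpin known as antichymotrypsin. SPINK5, SPINK6 and SPINK9, which restrain kallikreins in the epidermis, were not well above background in any array. Among 8 substrates and receptors, 6 were tested, with 5 higher and 1 lower under the label 1,25(OH)2D3 and a median difference of 0.28. PLAU, the urokinase plasminogen activator that kallikreins can activate, read 12.66, 12.44 and 12.44 in the arrays labelled 1,25(OH)2D3 and 11.94, 11.47 and 12.55 in those labelled vehicle. The difference for PLAU was 0.53 with a standard error of 0.271 (limma, adjusted p = 0.701). Among 7 upstream proteases and their inhibitors, 4 were tested and TMPRSS2, a membrane serine protease, had the largest difference, -0.48 (limma, adjusted p = 0.726). Its lowest values, 7.01 and 6.32, were those of slide 1, and on slide 2 the array labelled 1,25(OH)2D3 replicate 3, at 7.83, lay above the vehicle arrays at 7.52, 7.58 and 7.48, so that the direction turned within that slide.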

How the data were processed

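Total RNA of SKOV-3 cells was labelled with Cy3 and hybridised to 6 single-color Agilent arrays, 3 per label. The authors scanned the arrays with Agilent Feature Extraction 10.7.1.1 and deposited spot intensity on a linear scale, corrected for background within the array, with detection flags and other columns. A second deposited table held log2 values, 1 for each probe in each array. Its sorted columns differed by at most 0.000913, so that it had been quantile-normalized, and it ranked the probes of an array nearly as the scanner did (rank correlation of at least 0.9998). These log2 values were used here. Genes were assigned by exact match of probe sequences to sense transcripts of GENCODE 44 (hg38), since the gene name column repeats the probe name.

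A probe was well above background when a share above 0.5 of its spots carried the flag. The labels were compared with limma 3.58.1 in R 4.3.3, without a covariate, over 63337 probes well above background in all 3 arrays of at least 1 label, with Benjamini-Hochberg adjustment. Where a gene has several probes, its fold change is that of its brightest probe by the mean of all arrays. The fit was tested on simulated data. The named genes are the 9 kallikreins with all their probes, per related list the tested gene with the largest difference, and the 5 genes most like KLK6 exon 5 (1 of them is not reported here), the kallikrein probe with the widest range among those well above background in at least 3 arrays. The members and lists were chosen with earlier results of these data known. Alternatives were scaling to the 75th percentile, quantile normalization of scanner signals, normexp with an offset of 50, other filters, the slide or the replicate number as a block, the methods' t-test, the mean of a gene's probes, and each array left out. The number of arrays limits the precision.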

Additional observations from a re-analysis of the deposited data

How the results depend on the processing

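The number of kallikrein probes and of related genes past either threshold was 0 under each alternative that was run, including no filter on dim probes, the methods' t-test and each array left out. Among the fold changes of the 9 genes, KLK4, KLK8, KLK10 and KLK13 kept their direction under each alternative, but KLK4 and KLK13, not tested, moved from -0.96 to -0.17 and from -0.84 to -0.18 with normexp background correction, and KLK4 to -0.02 with the slide as a block. KLK6, at -0.02, was 0.10 with the slide as a block and ran from -0.20 to 0.12 with 1 array left out. KLK5, KLK7, KLK11 and KLK14, also not tested, changed sign under 2 or 3 alternatives. The cause was not tested. With the replicate number as a block the differences were the same and 0 probes passed, and KLK8 had an adjusted p of 0.715 (limma). The numbers were not taken as pairs, since deviations from the group means correlated at 0.12, 0.09 and -0.03 between samples of equal number, and not every array correlated best with its own number. Signal over background limited most probes, 12 of 15 of which were not tested.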
